A study of Rattus norvegicus with 7 samples.

Results

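Endoplasmic reticulum chaperones and genes of the unfolded protein response were followed in 7 RNA sequencing libraries of differentiating rat oligodendrocyte progenitor cells. The 31 genes were chosen by symbol from a table of 32852 genes, and all 31 were found there and passed the filter of a mean normalised count of at least 10. Cells came from the brains of wild-type rats at postnatal day 7, went into wells at about 40000 each, and were transfected in differentiating medium, in which they stayed for 4 to 5 days. The siRNA named siRNLTR12-int, which targets the rat retroviral element RNLTR12-int, was given to the cultures of 3 libraries, and a control siRNA to those of 4. No label ties a library to an animal, culture or day, so p-values measure only the spread between these libraries, which may be technical. RNLTR12-int itself was not analysed here, and the depth of its knockdown in these cultures is therefore not known.

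The endoplasmic reticulum folds membrane and secreted proteins, and a differentiating oligodendrocyte sends large amounts of myelin membrane protein and lipid through it. When unfolded protein builds up there, the sensors IRE1 (gene Ern1), PERK (Eif2ak3) and ATF6 are released from the chaperone BiP (Hspa5). IRE1 splices the Xbp1 mRNA into the form that encodes an active transcription factor, PERK slows translation and raises ATF4, and ATF6 is cut in the Golgi to free a transcription factor. The XBP1 and ATF6 factors then switch on chaperones, disulfide isomerases and the machinery that sends misfolded proteins to the proteasome. Counts per gene do not separate spliced from unspliced Xbp1, nor active from inactive sensors.

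Several of these genes carry in their promoters the endoplasmic reticulum stress element (ERSE), to which ATF6 binds together with the CCAAT factor NF-Y. It was searched as the letters CCAAT, 9 bases of any kind and CCACG, and the shorter ERSE-II as ATTGG, 1 base of any kind and CCACG. Promoter windows from RefSeq (build GRCr8, 250 bases before to 50 after the annotated start) were matched by symbol for 24 of the 31 genes. Ern1, Atf6, Pdia3, Pdia6, Manf, Derl1 and Sec61a1 were not matched. With both strands searched, ERSE was found in 8 of the 24 genes, or 33.3%, against 0.0657% of all 33469 promoter windows. ERSE-II was found in 3 of the 24 genes, Dnajb11, Herpud1 and Hyou1, or 12.5%, against 0.0508% of all windows. The UPRE letters TGACGTGG, an XBP1 site, were found in Dnajc10 and Hyou1, 8.33% of the 24, against 0.595% of all windows, and in Hyou1 that match overlaps an ERSE-II. ERSE and ERSE-II share the letters CCACG, and no window of these genes held both. A match is a description of the letters and shows no binding.

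Promoters of 3 chaperone or regulator genes that moved together in part of the libraries, Hspa5, Hsp90b1 and Xbp1, are printed from base -250 to base -1 before the start, with the fixed letters of ERSE in capitals. They lie at chr3:38452766-38453015 on the plus strand, chr7:23012294-23012543 on the minus strand and chr14:84604373-84604622 on the plus strand. The matches begin at base -43 in Hspa5, at -65 in Xbp1, and at -176 and -72 in Hsp90b1, the nearer Hsp90b1 match being on the opposite strand.
Hspa5: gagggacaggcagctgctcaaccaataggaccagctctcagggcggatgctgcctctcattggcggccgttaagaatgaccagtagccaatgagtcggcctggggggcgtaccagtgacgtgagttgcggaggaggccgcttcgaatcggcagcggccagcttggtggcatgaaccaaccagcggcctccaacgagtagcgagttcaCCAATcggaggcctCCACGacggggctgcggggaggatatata
Hsp90b1: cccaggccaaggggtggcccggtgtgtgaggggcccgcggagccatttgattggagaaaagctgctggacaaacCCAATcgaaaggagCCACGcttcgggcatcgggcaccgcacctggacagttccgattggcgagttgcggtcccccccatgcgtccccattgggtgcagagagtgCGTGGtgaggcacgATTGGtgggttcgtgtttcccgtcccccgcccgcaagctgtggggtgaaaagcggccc
Xbp1: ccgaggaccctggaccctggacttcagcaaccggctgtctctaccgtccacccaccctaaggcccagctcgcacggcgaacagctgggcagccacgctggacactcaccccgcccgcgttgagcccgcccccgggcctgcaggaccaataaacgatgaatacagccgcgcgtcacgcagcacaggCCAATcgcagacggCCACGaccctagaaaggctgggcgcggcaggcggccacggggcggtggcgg

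Shorter stretches are printed for Creld2, which holds ERSE, and for Herpud1 and Hyou1, which hold ERSE-II, to show both elements in members with no adjusted p under 0.05 in the fits run. They lie at chr7:121789219-121789277 on the plus strand (Creld2, ERSE on the opposite strand), chr19:10614801-10614851 on the minus strand (Herpud1, ERSE-II) and chr8:53602674-53602824 on the plus strand (Hyou1, 2 ERSE-II matches on the opposite strand). Capitals mark the fixed letters.
Creld2: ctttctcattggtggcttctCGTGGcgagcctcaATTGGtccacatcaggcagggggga
Herpud1: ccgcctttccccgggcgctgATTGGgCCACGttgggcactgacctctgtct
Hyou1: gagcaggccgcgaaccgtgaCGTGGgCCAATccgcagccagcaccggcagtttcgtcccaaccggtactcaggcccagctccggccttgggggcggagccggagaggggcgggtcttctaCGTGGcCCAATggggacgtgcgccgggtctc

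**Figure D1:**
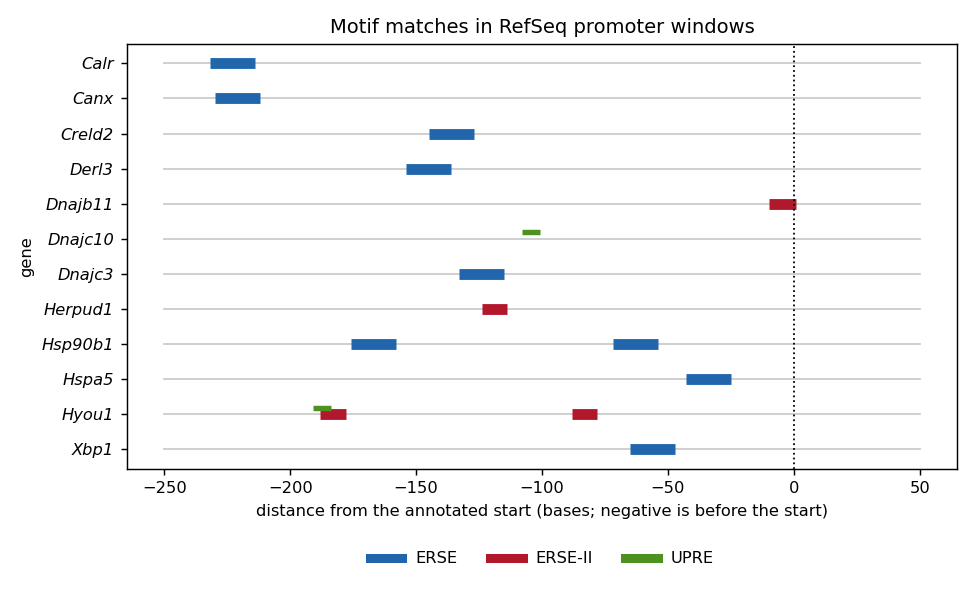
Matches to ERSE, ERSE-II and UPRE in the RefSeq promoter windows of the 12 genes that hold any of them, by distance from the annotated start in bases (horizontal axis; each grey line is 1 window from -250 to 50). ERSE matches begin between base -232 (Calr) and base -43 (Hspa5).

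Whole numbers recovered from the normalised counts, called recovered reads here, were summed over the genes of each library. The sums were 31609908 to 48187822 for siRNLTR12-int and 22523873 to 61803693 for the controls. Defining markers of oligodendrocyte lineage cells summed to 168374, 285929 and 269398 normalised counts in siRNLTR12-int replicates 1 to 3, against 256204, 975875, 375405 and 449555 in control replicates 1 to 4, and none of the 12 on the list was at 0 in all libraries. Markers of other cell types differed between libraries of the same group. The 12 astrocyte markers summed to 666119 normalised counts in siRNLTR12-int replicate 1 and to 602087 and 539190 in control replicates 1 and 2, against 140168 to 160200 in the other 4 libraries. The 11 microglia markers measured summed to 18512.5 in siRNLTR12-int replicate 1 and 16265.5 in control replicate 1, to 5693 in control replicate 2 and to 1817 to 2643 in the rest. Results are therefore also given for the 4 libraries low in astrocyte markers (siRNLTR12-int replicates 2 and 3, control replicates 3 and 4), a set chosen from earlier results of these data. In bulk RNA, fewer cells of a type and less RNA per cell cannot be told apart.

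Across all 7 libraries no member passed the test between siRNLTR12-int and control cultures. With limma on log2(normalised count + 1) over 18225 genes, 0 of 31 members and 0.0% of all genes had a Benjamini-Hochberg adjusted p under 0.05. At an unadjusted p under 0.05 there were 0 members higher, against 3.33% of all genes, and 1 member lower (Dnajb9), against 2.98%. edgeR on the recovered reads also called 0 members and 0.0% of genes, and Xbp1 (higher) and Dnajb9 (lower) had an unadjusted p under 0.05, as did 6.39% of genes in either direction. Members called in the authors' deposited table numbered 0, where 0.384% of genes were higher and 0.368% lower. Members had positive log2 differences in 23 of 31 cases (74.2%), against 51.0% of all genes, and their median was 0.06, against 0.01 over all genes. The largest member differences were 0.47 (Xbp1) and -0.43 (Dnajb9).

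Within the 4 libraries low in astrocyte markers, 4 members rose with limma: BiP, GRP94, XBP1 and MANF transcripts, encoded by Hspa5, Hsp90b1, Xbp1 and Manf. That is 12.9% of the members, against 4.02% of all genes called higher; 0 members were called lower, against 2.67% of genes. edgeR and DESeq2 on the recovered reads of these 4 libraries called the same 4 genes higher and none lower, against 4.25% and 5.42% of genes called higher and 3.39% and 4.89% lower. Log2 differences were positive in 27 of 31 members (87.1%), against 51.7% of all genes, with a median of 0.10 against 0.01. In this set 2 libraries stand on each side, and they are close pairs. The median chi-square per gene was 1.27 between siRNLTR12-int replicates 2 and 3 and 2.69 between control replicates 3 and 4, against 9.21 to 20.2 for the other pairs within a group. The p-values therefore rest on the small spread within close pairs. Without overlap were 14 members higher and 4 lower, against 31.2% and 25.3% of all genes. Oligodendrocyte markers moved with the siRNA in the same 4 libraries: 7 of the 12 were called lower and 2 higher with limma, among them Mbp at -2.47 and Pdgfra at 0.43 on the log2 scale. Their part in the members' differences was not tested.

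In the other 3 libraries positive differences were not more common among the members than among all genes. siRNLTR12-int replicate 1 minus the mean of control replicates 1 and 2 was positive in 12 of 31 members (38.7%), against 51.4% of all genes, with a median log2 difference of -0.06. With 1 siRNLTR12-int library there is no test within that set. A limma fit with an interaction between the siRNA and the split of the libraries called 0 members and 0.0% of all genes. At an unadjusted p under 0.05 its calls were Hspa5, Hsp90b1 and Manf, 3 of 31 members, against 4.57% of all genes. Array weights in the 7-library limma fit, which give libraries that stand apart less weight, led to 3 members called higher (Hspa5, Xbp1 and Manf) and 0 lower, against 2.5% and 2.1% of all genes. Leaving out siRNLTR12-int replicate 1 put 10 members higher and 4 lower without overlap, against 18.4% and 14.1% of all genes, and called 0.

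**Figure D2:**
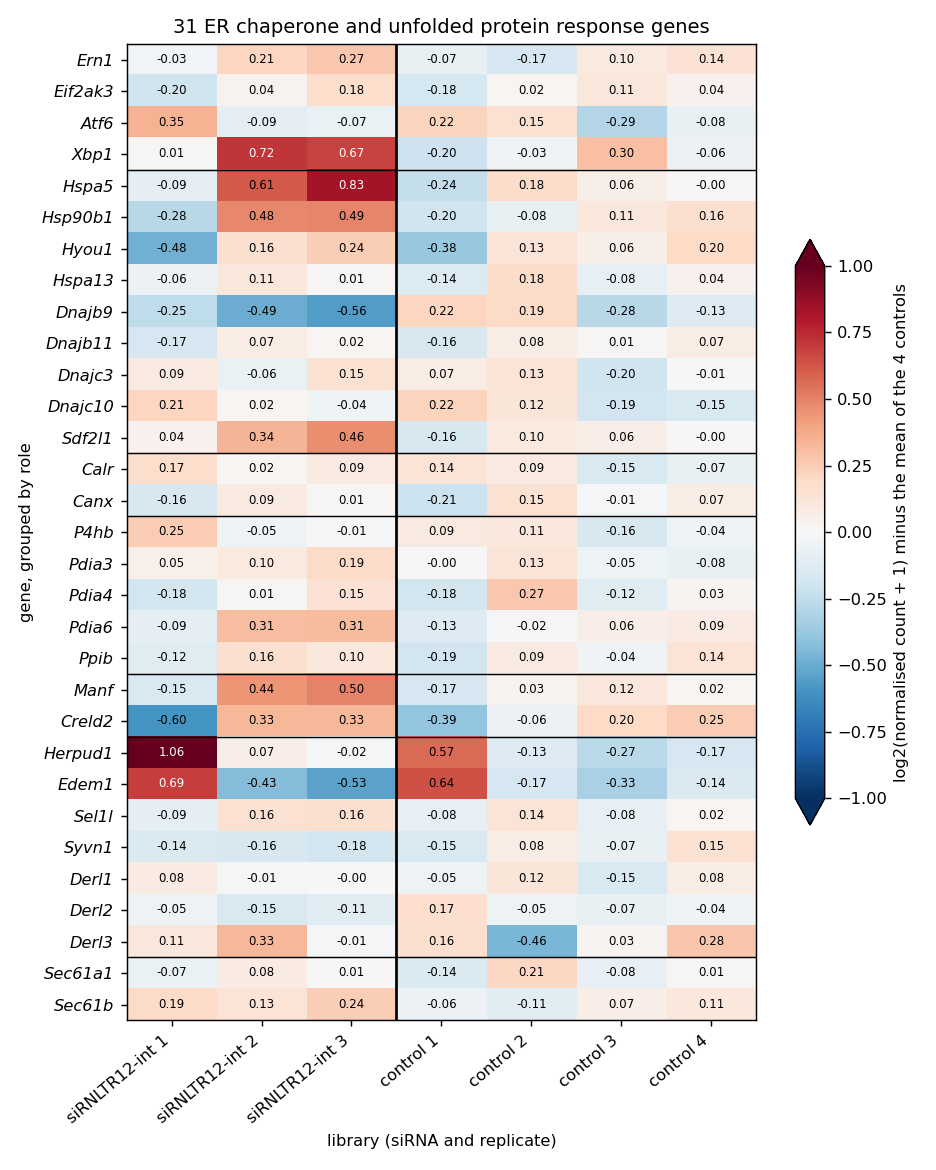
Each cell gives log2(normalised count + 1) of a gene (rows, grouped by role) in a library (columns) minus the mean of the 4 controls. Hspa5, Hsp90b1, Xbp1, Manf, Sdf2l1 and Pdia6 are above the control mean in siRNLTR12-int replicates 2 and 3, while Herpud1 and Edem1 are highest in siRNLTR12-int replicate 1 and control replicate 1.

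Among the sensors and the factor spliced by IRE1, Xbp1 was the member that passed a test, in the 4 libraries and with array weights. Xbp1 (ENSRNOG00000010298) had normalised counts of 2802, 4572 and 4433 in siRNLTR12-int replicates 1 to 3, against 2412, 2715, 3423 and 2663 in control replicates 1 to 4. siRNLTR12-int replicates 2 and 3 lay above every control, and replicate 1 fell inside the control range. The log2 difference over 7 libraries was 0.47 with a standard error of 0.20 (limma adjusted p = 0.796), and in the authors' deposited table (DESeq2) it was 0.49 (adjusted p = 0.631). In the 4 libraries low in astrocyte markers it was 0.58 with a standard error of 0.12 (adjusted p = 0.0433 with limma, 0.0442 with edgeR).

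The sensor genes did not pass. Ern1, which encodes IRE1, had 1277, 1506 and 1568 normalised counts in siRNLTR12-int libraries, against 1235, 1156, 1393 and 1437 in controls, a log2 difference of 0.15 with a standard error of 0.12 (limma adjusted p = 0.937). Eif2ak3, which encodes PERK, ranged from 1167 to 1518 in siRNLTR12-int libraries and from 1186 to 1449 in controls. Atf6 ranged from 3298 to 4465 in siRNLTR12-int libraries and from 2870 to 4090 in controls. All 3 overlapped between the groups over 7 libraries. Atf6 was higher, and Ern1 and Eif2ak3 lower, in the 3 libraries high in astrocyte markers than in all 4 others. Of all genes tested, 18.6% were higher and 17.1% lower in the same way. The part of other cell types in these levels was not tested.

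Hspa5, the gene of the Hsp70 chaperone BiP that holds the sensors inactive, showed the largest difference of any member in the 4 libraries. Hspa5 (ENSRNOG00000018294) had 7677, 12503 and 14581 normalised counts in siRNLTR12-int replicates 1 to 3, against 6922, 9289, 8519 and 8180 in control replicates 1 to 4. Replicates 2 and 3 exceeded every control, whereas replicate 1 was below 3 of the 4 controls. Means were 11587 ± 3542 (SD, n = 3) in siRNLTR12-int cultures and 8227 ± 986.3 (SD, n = 4) in controls, so the SD of the siRNLTR12-int group exceeded the difference of the means. The log2 difference was 0.45 with a standard error of 0.23 over 7 libraries (limma adjusted p = 0.841). It was 0.69 with a standard error of 0.09 in the 4 libraries low in astrocyte markers (limma adjusted p = 0.0141), and -0.06 between siRNLTR12-int replicate 1 and the mean of control replicates 1 and 2. The interaction was -0.76 with a standard error of 0.26 on the log2 scale (limma, unadjusted p = 0.0265, adjusted p = 0.965).

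Hsp90b1 encodes GRP94, the Hsp90 chaperone of the same compartment. Its normalised counts were 14542, 24585 and 24749 in siRNLTR12-int replicates 1 to 3, against 15405, 16722, 19101 and 19725 in control replicates 1 to 4. The lowest value of all 7 libraries and the 2 highest were thus all in siRNLTR12-int libraries. The log2 difference was 0.23 with a standard error of 0.21 over 7 libraries (limma adjusted p = 0.953) and 0.35 with a standard error of 0.07 in the 4 libraries (limma adjusted p = 0.0415). Hsp90b1 was also 1 of the 5 members lower in all 3 libraries high in astrocyte markers than in the other 4, with Creld2, Eif2ak3, Ern1 and Pdia6. Against these 5 members stood 17.1% of all genes, and 3 members (Atf6, Dnajc10 and P4hb) were higher there, against 18.6% of all genes. Neither count, out of 31 members, is above the share of all genes.

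Manf encodes a secreted neurotrophic factor that is retained in the endoplasmic reticulum and released under stress. It had 3247, 4889 and 5078 normalised counts in siRNLTR12-int replicates 1 to 3, against 3204, 3680, 3904 and 3647 in control replicates 1 to 4. The pattern was that of Hspa5, with replicates 2 and 3 above and replicate 1 inside the control range. The log2 difference was 0.26 with a standard error of 0.17 over 7 libraries (limma adjusted p = 0.906) and 0.40 with a standard error of 0.07 in the 4 libraries (limma adjusted p = 0.0302). Creld2, the other secreted member, ranged from 512.5 to 980 in siRNLTR12-int libraries and from 592.3 to 927.8 in controls, and was lowest in siRNLTR12-int replicate 1 and control replicate 1. As for Manf, replicates 2 and 3 of siRNLTR12-int, at 978.5 and 980, lay above all 4 controls, but Creld2 did not pass in the 4 libraries (log2 0.11, limma adjusted p = 0.507).

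**Figure D3:**
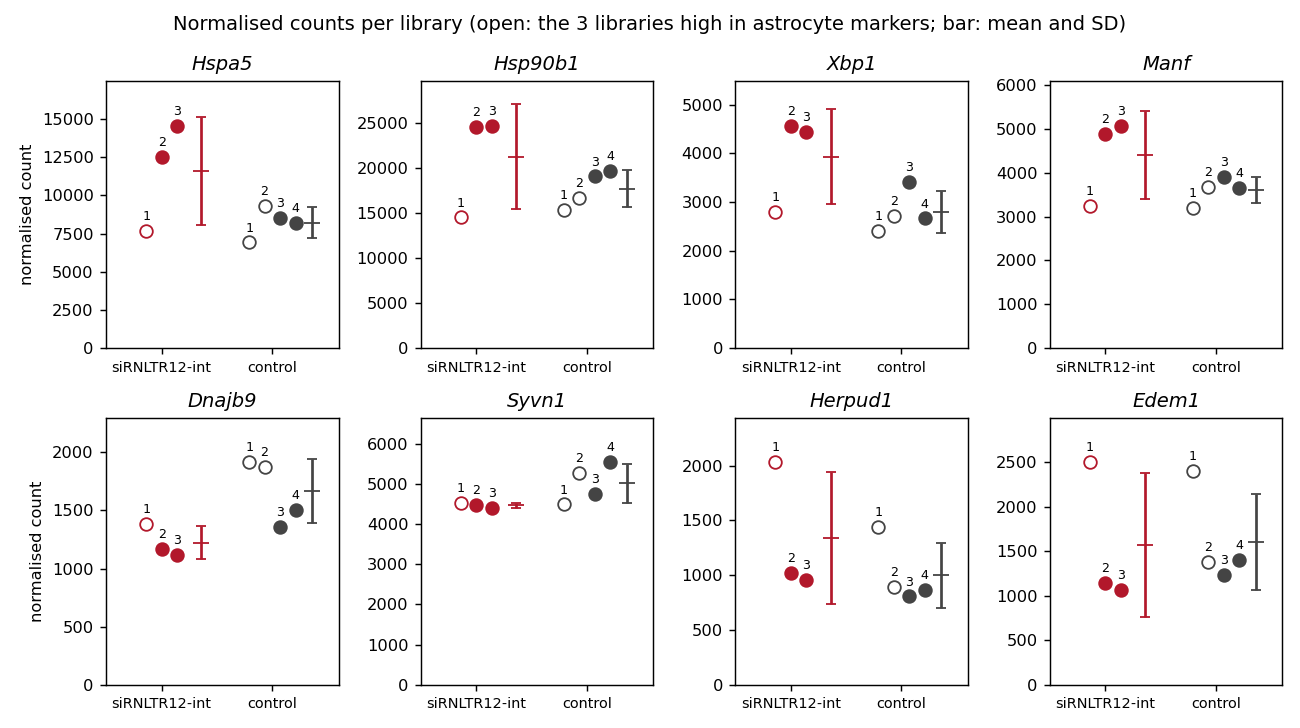
Normalised counts (vertical axes, from 0) of 8 genes in siRNLTR12-int (red) and control (grey) libraries, numbered by replicate, with the mean and SD beside them; open points are the 3 libraries high in astrocyte markers. For Hspa5, Hsp90b1, Xbp1 and Manf the filled siRNLTR12-int points lie above all controls and the open one does not.

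Among the chaperone cofactors none passed the test. Dnajb9 (ENSRNOG00000004006), a BiP cofactor whose gene is a known XBP1 target in mammalian cells, was lower rather than higher in siRNLTR12-int libraries on average. It had 1382, 1168 and 1119 normalised counts in siRNLTR12-int replicates 1 to 3, against 1914, 1876, 1357 and 1506 in control replicates 1 to 4. Only siRNLTR12-int replicate 1 and control replicate 3 overlapped. The log2 difference was -0.43 with a standard error of 0.16 (limma adjusted p = 0.712; -0.44 and adjusted p = 0.456 in the authors' deposited table, DESeq2). It was negative in both sets of libraries, at -0.32 in the 4 low in astrocyte markers (limma adjusted p = 0.0871) and -0.45 in the other 3, but its adjusted p was above 0.05 in each fit run.

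Sdf2l1, a partner of BiP and its DnaJ cofactors, had 306, 374.7 and 409.4 normalised counts in siRNLTR12-int libraries, against 265, 317.8, 310.3 and 296.3 in controls. Its log2 difference was 0.28 with a standard error of 0.15 over 7 libraries (limma adjusted p = 0.858) and 0.37 in the 4 libraries (limma adjusted p = 0.136). Hyou1, the large Hsp70 relative that exchanges nucleotide on BiP, ranged from 3662 to 6059 in siRNLTR12-int libraries and from 3934 to 5865 in controls, lowest in the first replicate of each group. Dnajb11, Dnajc3, Dnajc10 and Hspa13, the remaining cofactors and Hsp70 relatives, overlapped between the groups, and their highest library was 1.18 to 1.33 times their lowest.

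No lectin chaperone or isomerase passed the test. Calr and Canx, the genes of calreticulin and calnexin that hold glycoproteins during folding, ranged from 18733 to 20794 and from 38383 to 45757 normalised counts in siRNLTR12-int libraries, against 16579 to 20257 and 37057 to 47732 in controls. Among disulfide isomerases, Pdia6 was nearest to the test. It had 3916, 5186 and 5194 normalised counts in siRNLTR12-int libraries, against 3820, 4129, 4370 and 4435 in controls, with a log2 difference of 0.18 and a standard error of 0.13 (limma adjusted p = 0.922) over 7 libraries and 0.24 (limma adjusted p = 0.0853) in the 4. Pdia3, the isomerase that works with calnexin, had a log2 difference of 0.11 with a standard error of 0.09 (limma adjusted p = 0.935). Pdia4, P4hb and the prolyl isomerase gene Ppib overlapped between the groups, with ranges of 2150 to 2709, 8761 to 10792 and 5922 to 7175 in siRNLTR12-int libraries, against 2151 to 2950, 8116 to 9736 and 5629 to 7078 in controls.

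Genes for degrading misfolded proteins held the 2 members that varied most between libraries, and none passed the test. Herpud1, a scaffold of the ubiquitin ligase complex, had 2031, 1019 and 957.4 normalised counts in siRNLTR12-int replicates 1 to 3, against 1437, 889.6, 806.7 and 862.2 in control replicates 1 to 4. Edem1, a mannosidase-like protein that picks glycoproteins for degradation, had 2499, 1146 and 1069 in siRNLTR12-int libraries, against 2403, 1377, 1232 and 1401 in controls. Both were highest in siRNLTR12-int replicate 1 and control replicate 1, the libraries with the most microglia markers and among the richest in astrocyte markers; the part of those cells was not tested. Over 7 libraries the log2 difference was 0.37 with a standard error of 0.32 for Herpud1 and -0.09 with a standard error of 0.35 for Edem1 (limma adjusted p = 0.946 and 0.994). The fit to the 4 libraries gave 0.24 for Herpud1 and -0.25 for Edem1 (limma adjusted p = 0.174 and 0.19).

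Syvn1, the ubiquitin ligase HRD1, had 4519, 4477 and 4392 normalised counts in siRNLTR12-int libraries, against 4488, 5265, 4749 and 5537 in controls, with a log2 difference of -0.16 and a standard error of 0.10 (limma adjusted p = 0.897). Its partner Sel1l ranged from 8078 to 9587 in siRNLTR12-int libraries and from 8105 to 9449 in controls. The derlin genes, which encode membrane proteins that help misfolded proteins leave the compartment, also overlapped. Derl1 ranged from 2544 to 2711 in siRNLTR12-int libraries and 2305 to 2792 in controls, and Derl2 from 781.1 to 836.8 in siRNLTR12-int libraries and 824.8 to 976 in controls. Derl3, whose counts were low, ranged from 63.67 to 81.02 in siRNLTR12-int libraries and from 46.44 to 78.06 in controls.

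The translocon gene Sec61b, a small subunit of the channel through which new proteins enter, was the 1 member without overlap between the groups over all 7 libraries. It had 1245, 1196 and 1290 normalised counts in siRNLTR12-int libraries, against 1045, 1009, 1141 and 1173 in controls. The log2 difference was 0.19 with a standard error of 0.10 (limma adjusted p = 0.854). Of all genes tested, 4.09% were higher and 3.59% lower without overlap, so 1 member of 31 is near that background. Sec61a1, the channel subunit, ranged from 8332 to 9237 in siRNLTR12-int libraries and from 7903 to 10081 in controls.

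**Figure D4:**
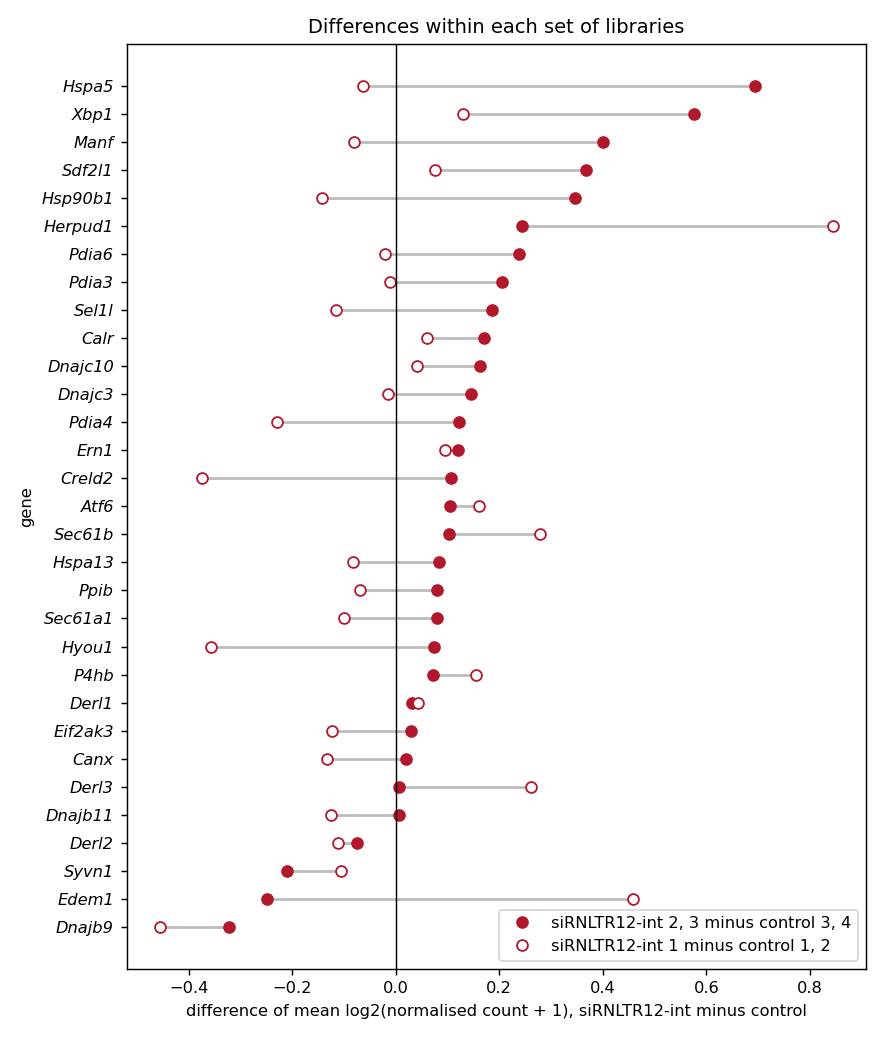
Difference of mean log2(normalised count + 1), siRNLTR12-int minus control, for each of the 31 genes (rows) within the 4 libraries low in astrocyte markers (filled) and within the other 3 (open). Filled points are right of 0 for 27 genes and open points for 12; Dnajb9, Syvn1 and Derl2 are left of 0 in both.

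Genes with ERSE or ERSE-II in the window were set beside the rest. In the 4 libraries low in astrocyte markers, 11 of the 11 with either element had a positive log2 difference, against 51.7% of all genes. The differences ran from 0.01 to 0.69, with a median of 0.15. The smallest, those of Dnajb11 and Derl3, were at 0.006 with limma and just below 0 with DESeq2 (-0.009 and -0.001). Of the 13 matched genes with neither element, 9 were positive, with a median of 0.08. Of the 4 genes called there, Hspa5, Hsp90b1 and Xbp1 have ERSE, and Manf has no entry. Over all 7 libraries 8 of the 11 and 8 of the 13 were positive, with medians of 0.10 and 0.02. In the other 3 libraries 4 of the 11 and 5 of the 13 were positive. These are descriptions, since groups of this size were not tested.

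Beyond the 31 genes, the lists of related genes were read from the same fits. In the PERK and ATF4 arm, 10 of 12 genes had a positive log2 difference over 7 libraries, with a median of 0.35. The unweighted limma fit called 0 of them, and array weights called Asns and Trib3 (limma adjusted p = 0.0294 and 0.0457). Within the 4 libraries, 3 of the 12 rose with limma and 0 fell, against 4.02% and 2.67% of all genes. edgeR called the same 3 there, and DESeq2 called Asns but neither Ddit3 nor Trib3 (adjusted p = 0.078 and 0.108). Asns, the asparagine synthetase gene and an ATF4 target, had 2068, 2049 and 1817 normalised counts in siRNLTR12-int libraries, against 1740, 857.7, 1216 and 1006 in controls, without overlap. Its log2 difference was 0.76 with a standard error of 0.23 (limma adjusted p = 0.691) over 7 libraries and 0.80 in the 4 libraries (limma adjusted p = 0.0179). Chac1, a glutathione-degrading enzyme induced by ATF4, had 331.6, 292.4 and 270 in siRNLTR12-int libraries, against 247.8, 153.8, 210.3 and 170.3 in controls, also without overlap (log2 0.62, limma adjusted p = 0.702). The remaining genes that limma called in the 4 libraries were named after their values were seen. Ddit3, the gene of CHOP (log2 0.66, limma adjusted p = 0.048), had 309.7, 311.4 and 311.9 normalised counts in siRNLTR12-int libraries, against 286.1, 365.7, 211.2 and 184.5 in controls. Trib3, which encodes a pseudokinase (log2 1.81, limma adjusted p = 0.0435), had 64.86, 41.77 and 38.68 in siRNLTR12-int libraries, against 48.80, 13.79, 12.93 and 8.87 in controls. Both overlapped between the groups over 7 libraries, and in the other 3 libraries the log2 differences were -0.06 for Ddit3 and 1.28 for Trib3. The Trib3 values are low, and in control replicate 4 a single read equals 1.77 normalised counts.

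Among 9 relatives and processors of ATF6, Creb3l1 rose in the 4 libraries with limma and 0 fell, against 4.02% and 2.67% of all genes. Creb3l1, a membrane-bound transcription factor called OASIS and best known from astrocytes and bone cells, had 1004, 1561 and 1395 normalised counts in siRNLTR12-int libraries, against 859.3, 647.3, 974.8 and 844.4 in controls, without overlap. Its log2 difference was 0.66 with a standard error of 0.20 over 7 libraries (limma adjusted p = 0.682) and 0.70 in the 4 libraries (limma adjusted p = 0.0199). With array weights Creb3l1 was called as well (limma adjusted p = 0.0252). Creb3l2 differed by -0.42 over 7 libraries (limma adjusted p = 0.865). In the 4 libraries it was called lower by DESeq2 (log2 -0.48, adjusted p = 0.0185) but not by limma or edgeR (adjusted p = 0.12 and 0.0882).

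Entry and glycosylation genes had positive medians over 7 libraries, without a call in the unweighted limma fit. Of 14 tested genes for translocation and signal peptide removal, 10 were positive (median 0.12), with Srpra, a subunit of the signal recognition particle receptor, at 0.26 and Tram1 at 0.26 (limma adjusted p = 0.712 and 0.772), both without overlap. In the 4 libraries limma and edgeR called 0 of the 14, and DESeq2 called Spcs3, a signal peptidase subunit gene, higher (log2 0.44, adjusted p = 0.00465). Of the 10 oligosaccharyltransferase genes 6 were positive (median 0.09), with the catalytic subunit genes Stt3a at 0.22 and Stt3b at 0.29 (limma adjusted p = 0.723 and 0.857). Stt3b rose in the 4 libraries (log2 0.43, limma adjusted p = 0.025), and array weights over 7 libraries also called it (limma adjusted p = 0.0329).

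The other lists were mixed. Of 11 other disulfide exchange genes 9 were positive (median 0.04), with Pdia5 at 0.57 and Erp29 at -0.34. Of 11 genes for glycan processing and quality control 5 were positive (median -0.02), with Lman1 at 0.27 and Edem3 at 0.13. Of 13 other degradation genes 7 were positive (median 0.03), with Nploc4, a cofactor of the segregase VCP, at -0.34 and Ube2j1, a ubiquitin-conjugating enzyme, at 0.30. The limma adjusted p-values of these 6 genes ran from 0.693 to 0.935 over 7 libraries, and limma called 0 genes of the 3 lists in the 4 libraries. Nploc4 was called lower there by edgeR and DESeq2 (adjusted p = 0.039 and 0.00364) and over 7 libraries with array weights (limma adjusted p = 0.0327). Over 7 libraries Nploc4 and Erp29 were lower without overlap, as were 3.59% of all genes. Nploc4 had 4375 to 4543 normalised counts in siRNLTR12-int libraries, against 5024 to 6253 in controls. Erp29 had 877.3 to 956.5, against 1038 to 1599 in controls. Ube2j1 was called higher in the 4 libraries by edgeR (adjusted p = 0.0496) but not by limma or DESeq2 (adjusted p = 0.0529 and 0.0846). Cytosolic heat shock genes were positive in 7 of 10 (median 0.11). Hspa1b, an inducible cytosolic Hsp70, had 170.8, 244.3 and 175.7 normalised counts in siRNLTR12-int libraries, against 121.5, 89.98, 101.7 and 106.4 in controls, without overlap. The authors' deposited table gives Hspa1b as higher (log2 0.91, DESeq2 adjusted p = 0.0183), and limma over 7 libraries gave an adjusted p of 0.647. Hspa1b also rose in the 4 libraries (adjusted p = 0.045 with limma, 0.0398 with edgeR and 0.0206 with DESeq2) and with array weights (limma adjusted p = 0.0424). Its reads may be shared with the near-identical Hspa1a, so the value is uncertain. Hspb1 differed by 1.38 with a standard error of 0.78 (limma adjusted p = 0.878) and rose in the 4 libraries (log2 0.68, limma adjusted p = 0.0199). It had 1065, 841.8 and 944.5 normalised counts in siRNLTR12-int libraries, against 786.5, 71.11, 569.7 and 544.6 in controls. The low value of control replicate 2 thus weighs on the difference over 7 libraries, which is 0.95 in the authors' deposited table.

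**Figure D5:**
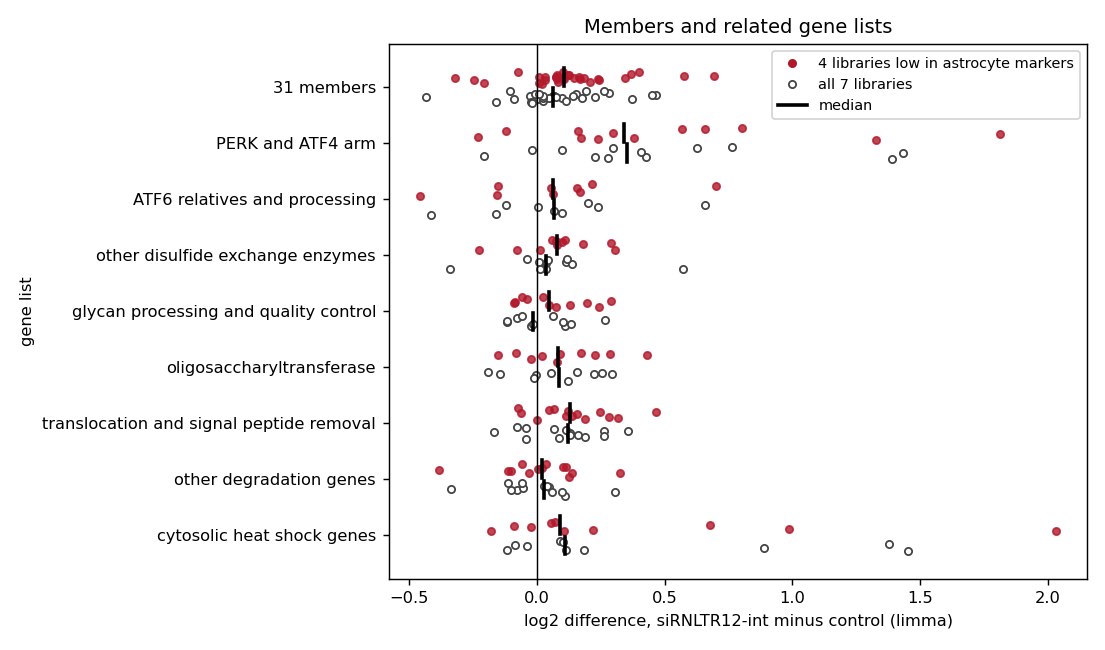
Log2 differences (limma, siRNLTR12-int minus control) of the 31 members and of 8 related gene lists (rows), in the 4 libraries low in astrocyte markers (red, upper points) and in all 7 libraries (open, lower points); black bars are medians. The PERK and ATF4 arm has the highest medians, at 0.34 and 0.35.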

How the data were processed

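Ribosomal RNA was depleted before strand-specific, paired-end sequencing, per the labels' protocols. Salmon, DESeq2 and the build Rnor_6.0 appear in the submitters' processing notes, without versions; the annotation and the handling of multi-mapped reads are not given in the sources used here. The authors deposited normalised counts (a signal per gene, divided by 1 factor per library) and their own comparison. Per the file headers, that table holds the authors' mean signal, log2 fold change, its standard error and a test score, p-values and adjusted p-values. Dividing each library's values by its smallest step gave whole numbers in 100% of cases (tolerance 0.01), used as recovered reads; the count test on them called 0 genes with edgeR.

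Normalised counts were tested as log2(count + 1) with limma 3.58.1 (trend, two-sided, no covariate) where the mean was at least 10, with Benjamini-Hochberg adjustment over all genes and a threshold of 0.05. The added 1 shrinks differences of genes with low counts, but differences on this scale were not always smaller than those of count tests. Trib3, for example, was at 1.43 with limma and 1.17 with edgeR over 7 libraries. edgeR 4.0.16 and DESeq2 1.42.0 ran on the recovered reads, and limma (7 libraries, 4 libraries and replicate block), edgeR and DESeq2 were tested on simulated data. The simulated libraries were independent, without close pairs or an astrocyte split, so they cannot judge the p-values of the 4 libraries. Other pseudocounts, filters, scalings, weights and blocks, and each library left out, were alternatives. edgeR and DESeq2 in the 4 libraries low in astrocyte markers, edgeR with a block for that split and the interaction were added after the data were seen. Full statistics are given for Hspa5, Xbp1 and the 8 other members with the smallest limma p, and for the 2 genes with the smallest p of each related list; Hsp90b1 and other genes were added after their values were seen. Members and lists were chosen with earlier results of these data known. Listed symbols not in the table, 1 symbol at 2 identifiers (Hspa8), and genes below the filter were left out. No gene lengths of this build were used, so levels are not compared between genes.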

Additional observations from a re-analysis of the deposited data

Results flagged for a closer look

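Among the 4 controls, 1 library stood apart from the others in 5 of 47 genes examined, by the gap to its nearest neighbour over the whole range; chance gives about 1 in 20 groups. Control replicate 1 was highest for Herpud1 (1437, against 806.7 to 889.6 in the other controls), Edem1 (2403, against 1232 to 1401) and Derl2 (976, against 824.8 to 842.7), and lowest for Edem3 (2050, against 2391 to 2420). Control replicate 2 was highest for Erp29 (1599, against 1038 to 1080). Herpud1 and Edem1 were also highest among the siRNLTR12-int libraries in replicate 1, at 2031 and 2499, which has the most microglia marker counts of that group; its part was not tested.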

How the results depend on the processing

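No log2 difference of a gene named by the rule, and no median of the members, changed sign under any alternative run. The median of the members ranged from 0.03 to 0.11. Over all genes, limma called 0 with 7 libraries, 839 with array weights and 1218 within the 4 astrocyte-low libraries, where edgeR gave 1392 and DESeq2 1732; DESeq2 on 7 libraries gave 141 and edgeR with a block for the astrocyte split 1. Leaving out 1 library gave 0 to 2 calls over all genes and 0 members. Members called were 3 with array weights (Hspa5, Xbp1 and Manf) and 4 in the 4 libraries with each tool. Members without overlap were 1 with 7 libraries, 18 in the 4 libraries (14 higher and 4 lower, against 31.2% and 25.3% of genes), and 1 to 14 with 1 library left out. The 14 came without siRNLTR12-int replicate 1, with 10 higher and 4 lower, against 18.4% and 14.1% of genes. Without control replicates 1, 2 and 3 there were 3, 2 and 4. The shares of all genes were not computed for those settings, so these counts are no result about the members. The cause of these shifts was not tested. Positive members numbered 23 with TMM and 21 with upper-quartile rescaling. Whether the shared replicate numbers pair the libraries cannot be told. Deviations from the group means correlated at 0.75, -0.19 and 0.63 for numbers 1 to 3 (across 18225 genes). Between the groups, all correlations were positive within an astrocyte marker set and negative across the sets, so they follow that split. With the replicate block 0 members and 0 genes were called, and the log2 difference of Hspa5 had an adjusted p of 0.576. Depth limits Derl3 most among the members, at 46.44 to 81.02 normalised counts.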
